A study of Mus musculus with 2 samples.

Results

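The fibrillar collagen genes described here are 7 members, Col1a1, Col1a2, Col3a1, Col5a1, Col5a2, Col2a1 and Col11a1, chosen by name from the 21938 protein-coding genes of the GENCODE M21 annotation on the mouse genome build mm10. Accessible chromatin around them was measured in heart tissue of male mice aged 14 days by DNase-seq, which reads where DNase I cuts nuclear DNA that nucleosomes leave uncovered. The mice were B6CASTF1/J, a first-generation cross of the inbred strains C57BL/6J and CAST/EiJ. There was 1 group with 2 biological replicates, no treatment and no contrast. The labels name 3 males for replicate 1 and 1 male for replicate 2, so a pool may stand beside a single heart, and an SD over both is the spread of these 2 samples only. Each gene was read over its body and 50 kb either side, and its promoter was taken as 1 kb either side of any annotated start. A gene's promoter signal is the highest peak signal in that window, on the authors' read-depth normalized scale, and a gene with a promoter peak in both replicates is called open.

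Fibrillar collagens are the rope-like proteins that give connective tissue its tensile strength. Each molecule is a triple helix of chains, and collagen I, made of the chains encoded by Col1a1 and Col1a2, and collagen III, made of the Col3a1 chain, form most of the matrix between heart muscle cells, where fibroblasts are the main producers. Collagen V, from Col5a1 and Col5a2, is built into the same fibrils in small amounts and helps to start them and to set their width, while collagens II and XI, from Col2a1 and Col11a1, are best known from cartilage. Since a whole heart mixes many cell types, fewer cells of a type and less accessibility per cell cannot be told apart in any value below.

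All 7 genes were open, but their promoters spanned a wide range of signal, with Col1a1 and Col5a1 at the top and the cartilage chains at the bottom. Each had a peak at or close to a start, and base composition there differed between genes. The 300 bases from 250 before to 50 after the RefSeq start (build GRCm38.p6, the same assembly as mm10) are shown for the 4 members that the RefSeq promoter table held, since they set the CpG-rich start of Col5a1 beside the CpG-free start of Col3a1. All are on the plus strand, and capitals mark bases that lay inside a footprint, a short stretch protected from cutting, in both replicates.
Col5a1 chr2:27886175-27886474: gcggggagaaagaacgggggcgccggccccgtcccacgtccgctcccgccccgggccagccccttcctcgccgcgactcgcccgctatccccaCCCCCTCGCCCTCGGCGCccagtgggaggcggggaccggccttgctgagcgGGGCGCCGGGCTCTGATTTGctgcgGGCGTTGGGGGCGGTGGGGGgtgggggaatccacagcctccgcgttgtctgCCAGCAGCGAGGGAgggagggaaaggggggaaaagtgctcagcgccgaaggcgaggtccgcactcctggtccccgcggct
Col1a2 chr6:4505368-4505667: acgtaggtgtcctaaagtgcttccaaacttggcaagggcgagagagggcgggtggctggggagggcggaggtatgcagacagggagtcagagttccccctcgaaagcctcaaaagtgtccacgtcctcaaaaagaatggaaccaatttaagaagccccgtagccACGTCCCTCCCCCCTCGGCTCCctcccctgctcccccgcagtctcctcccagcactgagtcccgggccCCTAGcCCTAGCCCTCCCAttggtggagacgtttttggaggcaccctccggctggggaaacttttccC
Col3a1 chr1:45311288-45311587: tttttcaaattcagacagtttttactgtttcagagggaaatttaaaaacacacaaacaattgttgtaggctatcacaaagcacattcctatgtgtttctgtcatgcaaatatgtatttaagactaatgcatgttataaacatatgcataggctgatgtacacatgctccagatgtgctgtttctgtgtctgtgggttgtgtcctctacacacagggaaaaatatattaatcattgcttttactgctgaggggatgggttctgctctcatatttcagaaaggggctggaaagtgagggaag
Col11a1 chr3:114030290-114030589: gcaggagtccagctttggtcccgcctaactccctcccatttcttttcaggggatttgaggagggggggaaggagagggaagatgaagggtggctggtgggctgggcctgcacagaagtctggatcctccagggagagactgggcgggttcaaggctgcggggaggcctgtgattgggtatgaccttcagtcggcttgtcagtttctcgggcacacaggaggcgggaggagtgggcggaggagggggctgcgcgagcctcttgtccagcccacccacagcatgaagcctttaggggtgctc

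The strongest regions away from starts are shown next because later paragraphs refer to them. By the mean of both replicates, they are the most accessible shared regions away from protein-coding starts in the windows of 5 members, a second one for Col1a1 and for Col1a2, and the region in the first intron of Col1a1 that gave this gene its promoter value. Each is written 5′ to 3′ along the strand of its gene (minus for Col5a2 and Col2a1), read from the reference genome, and capitals again mark footprint bases common to both replicates.
Col1a1 intron 1 chr11:94937081-94937260: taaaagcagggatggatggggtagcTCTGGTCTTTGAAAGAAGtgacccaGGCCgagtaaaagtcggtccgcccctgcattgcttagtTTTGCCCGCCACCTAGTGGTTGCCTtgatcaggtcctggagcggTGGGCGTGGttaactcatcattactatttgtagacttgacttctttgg
Col1a1 upstream chr11:94928861-94929140: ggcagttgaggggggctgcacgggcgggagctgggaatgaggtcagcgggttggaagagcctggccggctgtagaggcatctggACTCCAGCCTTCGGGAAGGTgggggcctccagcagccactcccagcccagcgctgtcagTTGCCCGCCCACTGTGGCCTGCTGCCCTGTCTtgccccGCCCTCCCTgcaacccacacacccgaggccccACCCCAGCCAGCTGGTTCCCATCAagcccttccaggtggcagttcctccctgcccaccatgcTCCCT
Col1a1 downstream chr11:94979041-94979200: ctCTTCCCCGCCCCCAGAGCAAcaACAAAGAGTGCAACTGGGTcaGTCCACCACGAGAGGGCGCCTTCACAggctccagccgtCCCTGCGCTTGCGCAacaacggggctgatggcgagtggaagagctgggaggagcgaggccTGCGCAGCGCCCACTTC
Col1a2 upstream chr6:4488461-4488600: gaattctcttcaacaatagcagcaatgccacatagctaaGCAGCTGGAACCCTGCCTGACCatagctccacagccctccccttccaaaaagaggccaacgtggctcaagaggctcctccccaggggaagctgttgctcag
Col1a2 downstream chr6:4545841-4546020: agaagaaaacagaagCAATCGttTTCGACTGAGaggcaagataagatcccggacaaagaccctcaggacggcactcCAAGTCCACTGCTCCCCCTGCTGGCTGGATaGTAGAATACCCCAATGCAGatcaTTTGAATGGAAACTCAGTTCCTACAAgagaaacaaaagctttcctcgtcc
Col5a1 intron 4 chr2:27936641-27936920: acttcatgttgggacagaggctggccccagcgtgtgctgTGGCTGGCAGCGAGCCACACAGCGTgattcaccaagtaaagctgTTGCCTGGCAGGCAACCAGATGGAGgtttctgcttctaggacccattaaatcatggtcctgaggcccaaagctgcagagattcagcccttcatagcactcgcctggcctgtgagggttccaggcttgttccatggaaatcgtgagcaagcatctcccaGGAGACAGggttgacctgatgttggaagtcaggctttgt
Col5a2 intron 6 chr1:45430561-45430740: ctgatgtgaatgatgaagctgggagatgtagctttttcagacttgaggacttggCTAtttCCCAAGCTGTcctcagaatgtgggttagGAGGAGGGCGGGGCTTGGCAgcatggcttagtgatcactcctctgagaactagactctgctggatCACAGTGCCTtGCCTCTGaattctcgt
Col2a1 intron 16 chr15:97992961-97993160: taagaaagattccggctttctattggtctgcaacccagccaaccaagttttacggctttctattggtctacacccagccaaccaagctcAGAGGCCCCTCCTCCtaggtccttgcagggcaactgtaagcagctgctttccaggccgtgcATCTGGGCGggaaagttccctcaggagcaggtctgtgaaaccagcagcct

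Promoter signal was highest at Col1a1, the gene of the pro-alpha1 chain of collagen I, with 8.29 in replicate 1 and 6.80 in replicate 2, a mean of 7.54 ± 1.06 (SD, n = 2). That value is of its intron 1 peak, while the peak across its 5′ end had 5.43 and 4.05. Col1a2, which encodes the second chain of the same protein, had 3.86 and 2.58, a mean of 3.22 ± 0.90. Col3a1 had 2.47 and 1.99, a mean of 2.23 ± 0.34. The replicates of these interstitial collagen genes did not overlap one another, so the order Col1a1, Col1a2, Col3a1 was the same in each. The genes whose products are joined in collagen I thus differed in promoter signal by more than the spread between replicates.

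Among the chains of collagen V, Col5a1 had 7.16 and 6.31, a mean of 6.74 ± 0.60, and Col5a2 had 2.09 and 1.96, a mean of 2.02 ± 0.10 (SD, n = 2 each). Col5a1 overlapped Col1a1 in its range and Col5a2 overlapped Col3a1, so neither pair of neighbours in the order differed beyond the spread. The cartilage chains came last. Col11a1 had 1.02 and 0.859, a mean of 0.940 ± 0.11, and Col2a1 had 0.397 and 0.472, a mean of 0.434 ± 0.05. Both replicates placed the 7 genes in one and the same order, and Col2a1 was the single member with a higher value in replicate 2.

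**Figure D1:**
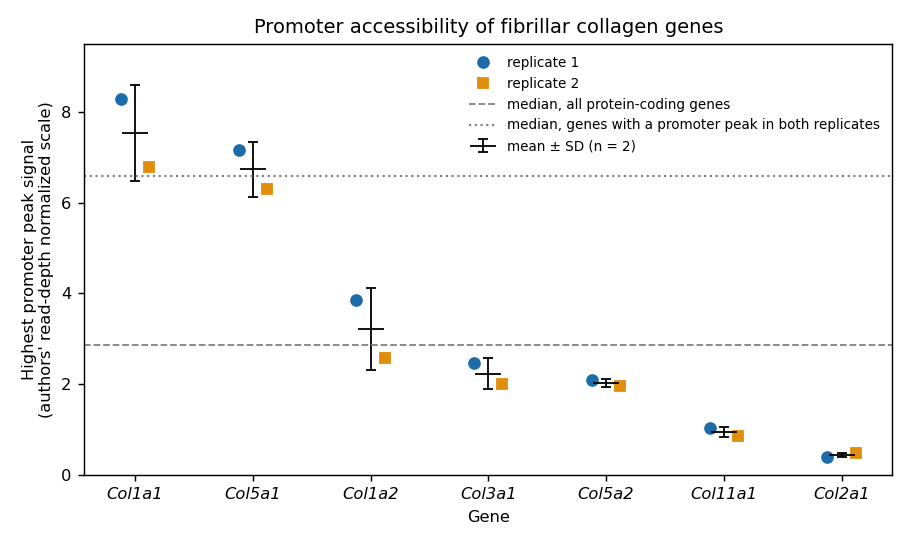
Highest peak signal within 1 kb of any annotated start (y axis, authors' read-depth normalized scale) for the 7 genes (x axis, by mean), with circles for replicate 1, squares for replicate 2, black marks for the mean ± SD (n = 2) and lines at the medians of all and of open protein-coding genes. Col1a1 and Col5a1 stand near or above the line of open genes at 6.60, and Col11a1 and Col2a1 lie below 1.1 in both replicates.

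Being open was common among genes of all kinds. A promoter peak was found in 70.4% of all protein-coding genes in replicate 1, in 70.0% in replicate 2 and in 68.8% in both, against which 7 of 7 members is a count of few genes. The median promoter signal of the 7 was 2.47 in replicate 1 and 1.99 in replicate 2, beside 3.06 and 2.69 for all protein-coding genes. Over the replicate means, the members' median of 2.23 stood beside 2.86 for all genes and 6.60 for open genes. Col1a1 lay at percentile 69.4 of all genes, Col5a1 at 66.2, Col1a2 at 51.6, Col3a1 at 46.8, Col5a2 at 45.9, Col11a1 at 38.6 and Col2a1 at 33.2, with genes lacking a peak counted as 0. Within open genes alone, Col1a1 was at percentile 55.4 and Col2a1 at 2.91, so the collagen genes reached from the middle of that range to its lower edge. In the authors' smaller peak set 6 members remained open, beside 65.3% of all genes, and with the upper 50% of peaks by signal 6 did, beside 62.3%. Col2a1 was the one lost in each case.

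The shape of the accessible start differed between genes of like signal. Col1a1 had a peak across its 5′ end (chr11:94936161-94936340) of 5.43 and 4.05, a stronger one in intron 1 whose middle lay 0.947 kb into the gene, at 8.29 and 6.80, and one in intron 6 near further annotated starts (chr11:94939381-94939560), at 4.94 and 4.18. The intron 1 region, printed above, was thus the most accessible point at the Col1a1 starts in both replicates. Col5a1 had its main peak just upstream of the start (chr2:27886161-27886460), and a broad region of 740 bp followed in intron 1, with 1.91 and 1.64. The main Col5a1 peak, 7.16 and 6.31, was above the peak across the Col1a1 5′ end in both replicates. Col1a1 thus ranked first only through its intron 1 peak. A further peak 0.444 kb upstream, at 2.16, was called in replicate 1 alone and was the strongest of all peaks seen in a single replicate in these windows. These Col5a1 regions also lay within 1 kb of a start of the non-coding gene 2810430I11Rik, so their signal cannot be assigned to Col5a1 alone. The promoter regions of Col1a2 and Col3a1 likewise lay within 1 kb of starts of the non-coding genes Gm43921 and Gm47302.

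The lists of bases with a false discovery rate (FDR) of cutting under 0.05, which come from the same reads as the peaks, were counted around the 5′ ends. In the 2 kb around the annotated 5′ end, Col5a1 had 1636 such bases in replicate 1 and 1625 in replicate 2, at percentiles 95.4 and 94.6 of all protein-coding genes. Col1a1, with the higher peak, had 786 and 787, and Col1a2 had 688 and 664. This window leaves out the intron 6 peak of Col1a1 and the promoter region in intron 1 of Col1a2. The counts are thus not widths over all starts of a gene. The accessible stretch around the Col5a1 5′ end, with a start of 2810430I11Rik close by, was therefore the broadest of the set in both replicates. Col5a2 had 985 and 862 bases and Col3a1 had 501 and 466, beside medians of 613 and 657 for all genes. Col11a1 had 340 and 367, and Col2a1 had 138 and 255. The lowest FDR near a start was 5.02e-61 and 2.80e-55 at Col5a1, and 0.0144 and 0.00478 at Col2a1, where both values lay nearest to the limit of 0.05.

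Base composition was computed for the 4 printed starts. The printed window of Col5a1 held 75% G and C and 34 CpG sites, at percentiles 96.2 and 92.7 of the 32851 promoters in the RefSeq table. Col1a2 held 61% and 13 sites, and Col11a1 62.3% and 9. Col3a1 held 37.7% and no CpG site, at percentiles 6.84 and 2.71, beside medians of 52.7% and 7 sites in the table. The 4 genes therefore lay on both sides of the typical promoter in composition. The Col3a1 window covers little of the promoter peak of that gene, so its composition is not that of the peak.

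Footprints at the promoters followed the order of the promoter signals in their means, with ties. Col1a1 had 14 in replicate 1 and 15 in replicate 2, Col5a1 had 11 and 9, and Col1a2 had 6 and 7. Col3a1 had 6 and 5, and Col5a2 had 5 and 6, close to the median of 5.5 for all protein-coding genes. Col2a1 had 0 and 4, and Col11a1 had 1 and 3, so footprints at the cartilage genes depended on the replicate. In the printed Col5a1 window 72 bases were in footprints of both replicates, and they include one match to the GC box GGGCGG, the element bound by SP and KLF factors, at positions 178 to 183 counted from the 5′ end. In that of Col1a2 41 bases were, among them 1 of the 5 bases of a CCAAT match at positions 251 to 255. In those of Col3a1 and Col11a1 none was. The Col3a1 promoter peak (chr1:45311561-45311740) lies mostly past the end of the printed window at 45311587. That peak had 2 footprints in replicate 1 and 3 in replicate 2, outside the window.

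Short consensus sequences were searched on both strands of the 4 printed promoters and of every promoter in the table. CCAAT, the box bound by NF-Y, occurred in Col1a2 and Col11a1, thus in 2 of 4, and in 37.4% of all promoters. GGGCGG occurred in Col5a1, Col1a2 and Col11a1, and in 35.7% of all. TATAAA, the TATA box, occurred in Col3a1 alone of the 4, and in 13.6% of all, but at positions 134 to 139, away from the start at position 251. CAGACA, a sequence recognised by SMAD proteins of the TGF-beta pathway, occurred in Col1a2, Col3a1 and Col5a1, and in 21.04% of all. The AP-1 sequence TGANTCA was in none of these 4 windows. These matches describe letters only, and GGGCGG can share bases with AGNGGGC, the core searched for CTCF, as it did in Col1a2 and Col11a1.

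Beyond the starts, the 7 windows held 90 different regions accessible in both replicates, where peaks that overlapped or adjoined were merged and a merged region with a peak of each replicate is called shared. Counted per gene they were 92, since 2 lay in the windows of both Col3a1 and Col5a2, which are convergent neighbours on chromosome 1 with 24.6 kb between their 3′ ends. Of 120 different regions seen in either replicate 75% were shared, beside 65.9% of all 158036 regions of the series. The other 30 were called in 1 replicate only, and their median signal was 0.466. Of the shared regions, 70 lay away from protein-coding starts, with a median signal of 1.25 in replicate 1 and 1.06 in replicate 2, beside 0.936 and 0.728 for 76148 such regions in the series. The windows were not alike in this. Their medians were 2.02 and 1.43 at Col1a1, 1.32 and 1.05 at Col1a2, and 1.29 and 1.15 at Col5a1. They were lower at Col3a1 (0.965 and 0.651), Col5a2 (0.915 and 0.597), Col2a1 (0.660 and 0.633) and Col11a1 (0.319 and 0.257). The pooled median is thus not a trait of every window.

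**Figure D2:**
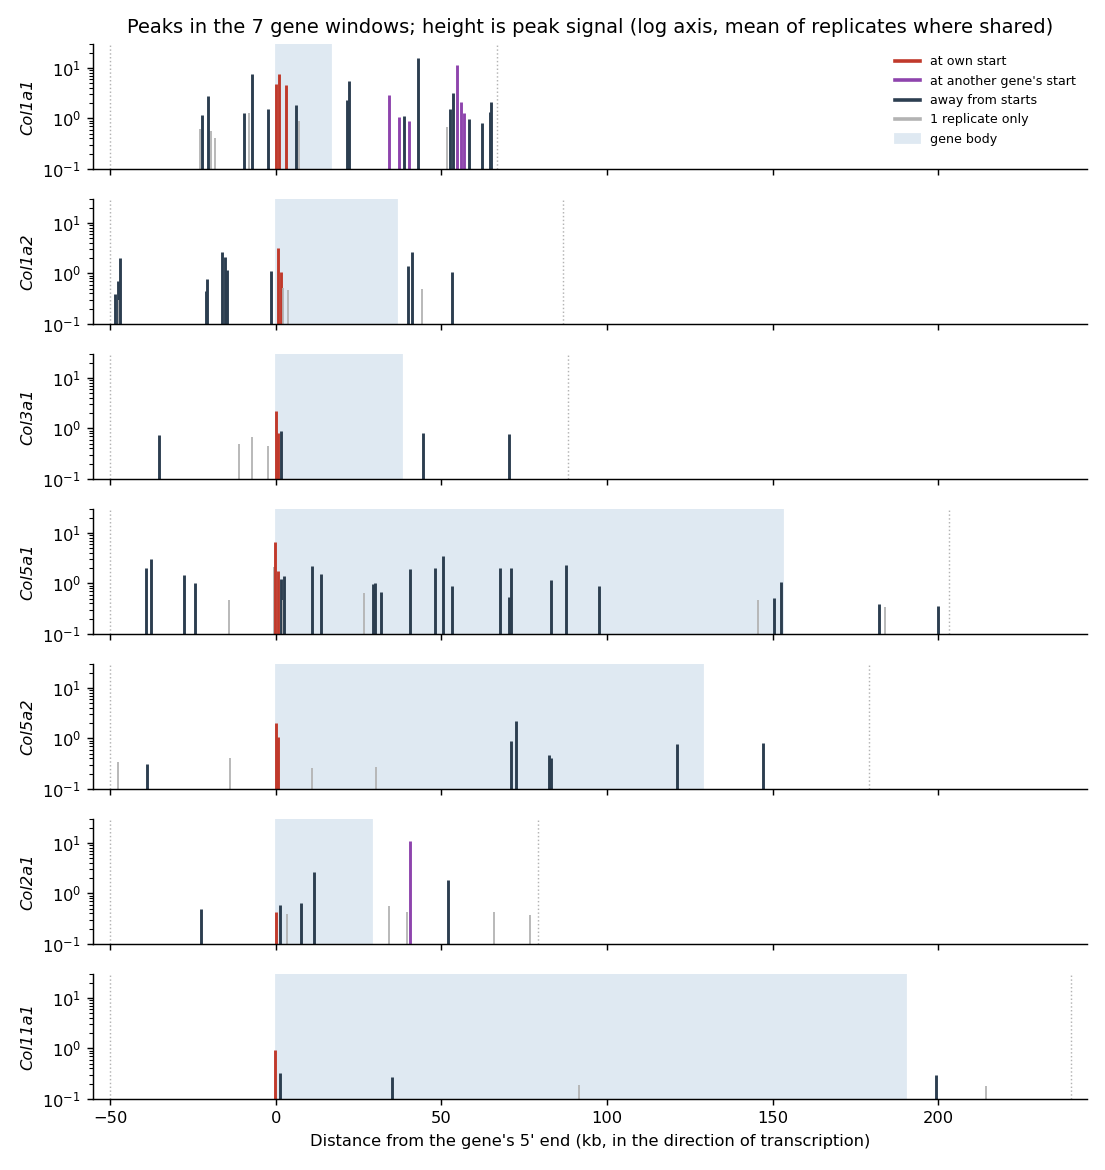
Position of every peak region from the gene's 5′ end (x axis, kb, in the direction of transcription) and its signal (y axis, log scale, mean of replicates where shared, otherwise the value of 1 replicate) for the 7 genes, with gene bodies shaded and dotted lines at the window ends. Regions crowd along Col5a1 and around Col1a1, those of Col1a2 lie outside its body or close to its start, and Col11a1 has 4 shared regions over its whole window.

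The windows also differed in where their regions lay. Col1a1 had 25 shared regions, of which 10 were downstream, 5 upstream, 1 in its body, 3 at its own starts and 6 at the starts of other genes. Col1a2 had 14, with 9 upstream, 3 downstream, 2 at its own starts and none elsewhere in its body. Col5a1 had 27, with 19 in its body, 4 upstream, 2 downstream and 2 at its starts. Col5a2, the other collagen V gene, had 9, with 5 in its body. By count, most regions of Col1a1 and Col1a2 thus lay in the flanks and most of Col5a1 in its body. These counts are not corrected for length, since the bodies span 16.8, 36.7 and 153 kb in that order beside equal flanks. Per 100 kb of body, regions at starts included, Col1a1 had 23.8 shared regions, Col1a2 5.44 and Col5a1 13.7. For regions away from starts, the 9 upstream of Col1a2 lay at percentile 98.4 of all protein-coding genes, the 10 downstream of Col1a1 at 98.8 and the 19 in the body of Col5a1 at 98.9, beside medians over all genes of 1 upstream, 2 downstream and 0 in the body.

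**Figure D3:**
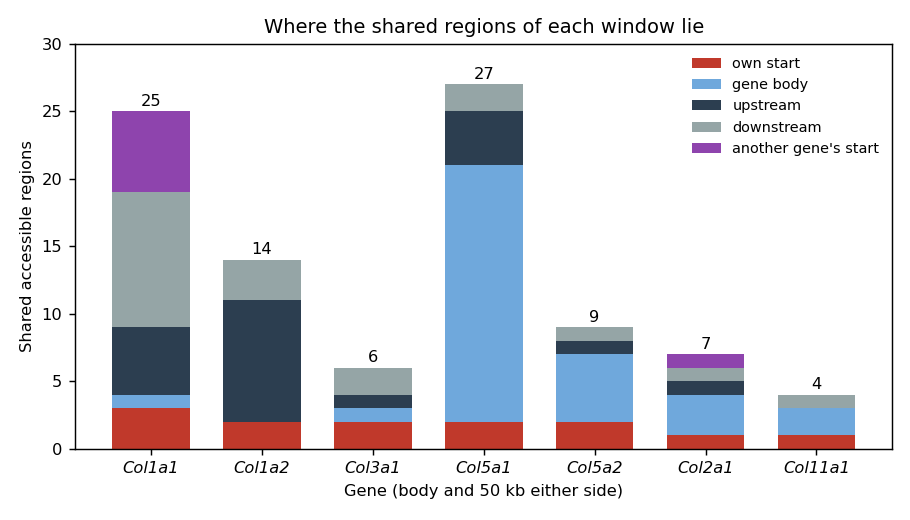
Number of shared accessible regions (y axis) in the body and 50 kb flanks of each gene (x axis), stacked by place. Most of the 27 regions of Col5a1 fall in its body, most of the 14 of Col1a2 lie upstream, and Col11a1 has 4 in all.

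Col1a1 sits in a dense stretch of chromosome 11. Its window held 21.4 shared regions per 100 kb, at percentile 97.2 of all genes and beside a median of 6.69. The strongest region away from starts, 26.1 kb past the 3′ end of Col1a1, had 17.3 in replicate 1 and 14.4 in replicate 2 and exceeded every promoter value of the 7 genes. This printed region lies beyond Sgca, the gene of a sarcoglycan of muscle membranes that is the nearest downstream neighbour, and all 7 bases of each of its AGNGGGC matches, at positions 56 to 62 and 152 to 158, fell in footprints of both replicates. Closer to the gene, the upstream region centred 7.22 kb before the 5′ end had 8.88 and 6.50, more than the 5′ end itself, and 5 of its 6 footprints in replicate 1 were also present in replicate 2. It holds CAGCTG, an E-box of the kind bound by TCF21, a factor of cardiac fibroblasts, at positions 222 to 227, inside footprints of both. Whether TCF21 binds there was not tested. A region 5.19 kb past the 3′ end, within 1 kb of the start of the non-coding gene Gm24877, had 6.52 and 4.76. Starts of Sgca reached 3.30 and 2.42, and that of Ppp1r9b, the gene of the actin-binding scaffold spinophilin, 12.9 and 10.2, so part of the density belongs to neighbours. Tmem92, the nearest gene on the other side, had no promoter peak.

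Col1a2 stands alone on chromosome 6, with the nearest protein-coding genes Bet1, a vesicle transport gene, 418 kb away and Casd1, a sialic acid acetyltransferase gene, 59.3 kb away. Its upstream regions formed groups, with distances counted from the annotated 5′ end of the gene (chr6:4504814), which lies before the printed RefSeq window. A group of 3 lay between 16.3 and 14.8 kb before the 5′ end, with 3.21 and 2.02 at the printed one, 2.48 and 1.78 at the next, and 1.41 and 0.943 at the nearest to the gene. The first of these was lower than the promoter peak of Col1a2 in each replicate. It carries a CAGCTG match at positions 41 to 46 in footprint bases of both replicates. As background, a far-upstream enhancer of mouse Col1a2 that acts in fibroblasts is known from reporter mice, and whether it is any of these regions was not tested. Other groups lay near 21 kb, by the start of the non-coding gene Gm37883, with at most 1.02 and 0.531, and near 47 kb, with at most 2.16 and 1.83. Downstream, a region 4.39 kb past the 3′ end had 2.84 and 2.46.

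The bodies of Col1a2 and Col3a1 were almost free of accessible sites beyond the part near the start, which is common among genes. The median over all protein-coding genes was 0 shared body regions away from starts. Col1a2 had 0, at percentile 28.2, and Col3a1 had 1, at percentile 64.5. Stretches without a peak were not measured in other genes. No peak of either replicate lay in the last 33.0 kb of Col1a2, 89.8% of its length, and no base there had an FDR under 0.05 in either replicate. In Col3a1 the last 36.5 kb, 95.7% of the gene, had no peak. There 41 bases in replicate 1 and 6 in replicate 2, or 0.112% and 0.0164%, passed the FDR limit. A low share is built into stretches picked for lacking peaks, since both lists come from the same reads. Over the whole body, 1.86% and 1.47% of Col3a1 passed, near the 1.61% and 1.48% of the genome, and 3.43% and 2.87% of Col1a2. In Col1a1 the last 9.87 kb, 58.7% of the gene, held neither a peak nor such a base. Within the bodies of the 3 genes of collagens I and III, peaks therefore lay only towards the start.

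Col3a1 was the sparsest of these interstitial genes, with 6 shared regions. Beside the peak at its start (chr1:45311561-45311740) there were regions in intron 1 of 0.794 and 0.818 and, 1.53 kb into the gene, of 1.07 and 0.674. The last was its strongest region away from starts by the mean and in replicate 1. Upstream a single shared region, 35.3 kb before the 5′ end, had 1.01 and 0.466, and 3 weaker ones appeared in replicate 1 alone. Past the gene, the regions shared with the Col5a2 window had 0.915 and 0.698, the highest away from starts in replicate 2, and 0.922 and 0.627. Replicate 1 thus showed more around Col3a1 than replicate 2, also in footprints, with 27 against 11. The nearest gene upstream, Gulp1, an engulfment adaptor gene 515 kb away, had a promoter signal of 3.99 and 3.68.

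Col5a1 contrasts with Col5a2 although both are long genes. The 153 kb of Col5a1 held 12.4 shared regions away from starts per 100 kb, at percentile 92.0 of all genes, and the 129 kb of Col5a2 held 3.88, at percentile 70.3. In the body of Col5a1 the strongest by the mean was the printed region of intron 4, with 3.55 and 3.31, followed by one in intron 22 with 2.73 and 1.92, and one in intron 1 with 2.35 and 2.07. Of the 19 body regions, 17 lay in the first 98 kb of the gene, after which 47.8 kb had no peak. The remaining 2 lay close to the 3′ end, with 0.567 and 0.448 in intron 65 and 1.13 and 0.961 in exon 66. Upstream, a region 37.7 kb before the 5′ end had 3.69 and 2.44 and one at 39.2 kb had 2.43 and 1.56, on the side of Rxra, a retinoid receptor gene whose promoter had 4.67 and 5.14. Fcnb, a ficolin gene and the neighbour past the 3′ end, had no promoter peak.

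In Col5a2 the printed region of intron 6 had 2.67 and 1.74, a mean of 2.21 ± 0.66 (SD, n = 2), and overlapped the promoter value of the gene in its range. Among the Col5a2 regions away from starts it was the single one above the series' upper quartile for such regions, 1.77 and 1.34, in both replicates. It holds GGGCGG at positions 94 to 99 and TTGGCA, a short recognition sequence of NFI factors, at positions 103 to 108, all in footprint bases of both replicates. The next region, in the same intron, had 1.16 and 0.597, and the other 5 had at most 0.922. Wdr75, a ribosome biogenesis gene 292 kb upstream, had a promoter signal of 12.2 and 9.71, well above that of Col5a2.

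At Col2a1, the gene of the main cartilage collagen, the start was weaker than a site inside the gene. Its promoter peak (chr15:98004377-98004840) had 0.397 and 0.472, while the printed region of intron 16 had 3.21 and 2.07, a mean of 2.64 ± 0.81 (SD, n = 2). The ranges did not overlap, and the intronic region was present in the smaller peak set of both replicates, where the promoter peak was absent. The region has a pair of CCAAT matches, at positions 22 to 26 and 62 to 66, neither in a footprint of both replicates. Another region 23.0 kb past the 3′ end had 2.21 and 1.48. The strongest peak of the window, with 11.7 and 10.1, was at the start of Tmem106c, a transmembrane protein gene 5.33 kb from the 3′ end of Col2a1, and Senp1, a SUMO protease gene 34.0 kb upstream, had 7.15 and 6.55.

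Col11a1, which encodes a chain of the minor fibrillar collagen of cartilage, was nearly bare. In the 290.2 kb of its window 4 regions were shared, or 1.38 per 100 kb, at percentile 16.5 of all genes. Apart from the start they had 0.319 and 0.328 in intron 1, 0.291 and 0.257 in intron 3, and 0.390 and 0.197 past the 3′ end, all below the series medians for regions away from starts. A stretch of 98.7 kb, 51.9% of the gene, had no peak. Bases with an FDR under 0.05 made up 0.405% and 0.334% of the window, a smaller share than the genome as a whole. Its neighbours were far off and unlike each other, with 18.1 and 14.1 at Rnpc3, a splicing factor gene, and 0.681 and 0.609 at Olfm3, an olfactomedin gene.

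Footprints in the windows numbered 314 in replicate 1 and 320 in replicate 2. Col1a1 had 97 and 110, Col5a1 had 77 and 96, and Col1a2 had 53 and 48. Col3a1 had the 27 and 11 given above, Col5a2 had 29 and 22, Col2a1 had 26 and 27, and Col11a1 had 5 and 6. The ranking by footprints thus resembled that by regions. Of the footprints, 88.2% and 88.8% lay in peaks of their own replicate, beside 88.7% and 87.1% in the series, and 53.5% and 55.3% were covered over 50% or more of their length by a footprint of the other replicate, beside 49.6% and 54.0%. Many footprints of the windows thus lacked such cover in the other replicate, and those with no overlap at all were not counted.

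Motif letters at these footprints were counted in 41 bases around each centre, with each footprint taken once, for 13 consensus sequences and with no test. CCAAT was present at 27 of 307 footprints of the collagen windows in replicate 1, 8.79% (95% Wilson interval 6.11 to 12.5), beside 5.45% of all footprints. In replicate 2 it was present at 25 of 317, 7.89% (5.399 to 11.4), beside 5.25%. ACAAAG, a sequence of SOX factors, was at 4.23% (2.49 to 7.11) and 2.84% (1.501 to 5.31), beside 2.07% and 2.00%. These were the sequences with the highest ratio to the series in replicate 1. TGANTCA was at 1.30% (0.508 to 3.30) and 1.26% (0.492 to 3.20), beside 1.34% and 1.22%, and GGGCGG at 8.79% (6.11 to 12.5) and 8.20% (5.66 to 11.7), beside 8.44% and 9.25%, both close to the series. The intervals cover counting error only, and footprints of 1 gene are not independent of each other.

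The replicates differed in scale in these windows about as they did elsewhere. Replicate 1 was higher in 82 of the 90 shared regions, or 91.1%, beside 80.8% of all 104208 shared regions. Replicate 1 over replicate 2 gave a median log2 ratio of 0.34 in the windows, with an SD over regions of 0.29, and 0.31 with an SD of 0.35 in the series. Regions that reversed this order included the Col2a1 start and a Ppp1r9b start with 1.72 and 2.49.

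**Figure D4:**
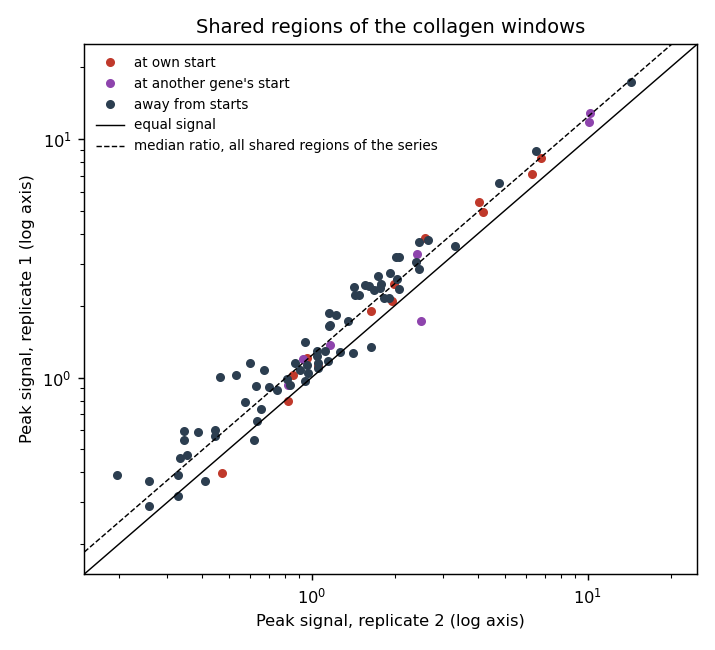
Peak signal in replicate 1 (y axis, log scale) against replicate 2 (x axis, log scale) for the 90 shared regions of the 7 windows, coloured by place. The solid line marks equal signal and the dashed line the series' median log2 ratio of 0.31, and 82 regions lie above the solid line.

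Genes that act on the same proteins were open almost throughout, as were most genes, and several had promoters well above those of the collagens themselves. All 4 other fibrillar collagen genes were open, led by Col27a1 with 5.59 and 6.55 (0 and 0.657 at its 5′ end alone) and by Col5a3, the third chain of collagen V, with 3.66 and 3.37. Of 17 hydroxylases and chaperones that modify and fold procollagen, 17 were open, with a median of 8.52 ± 1.54 (SD, n = 2). The highest were P4ha1, the catalytic subunit of prolyl 4-hydroxylase, with 23.7 and 21.3, and P4hb, its partner subunit, with 23.1 and 19.8. Both exceeded every promoter of the 7 collagen genes, although the list reached down to 1.90 at its lowest. All 8 genes of propeptide proteases and their enhancers were open, led by Bmp1, which cuts the C-terminal propeptide, with 4.89 and 6.25, and Adamts2, which cuts the N-terminal one, with 5.67 and 5.20. Of 5 cross-linking enzymes 4 were open, with Loxl3 at 7.58 and 5.75 (3.06 and 3.08 at its 5′ end alone) and Loxl4 at 4.21 and 4.83, and Loxl2 had no promoter peak in either replicate.

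Of 17 fibril-associated collagens and proteoglycans 12, or 70.6%, were open, near the 68.8% of all protein-coding genes, with a median of 0.869 ± 0.16 (SD, n = 2). Col16a1 had 13.8 and 10.95 and Fn1, the gene of fibronectin, 11.3 and 8.66, while Col9a1, Col9a3 and Tnxb had no promoter peak. All 8 collagen receptor genes were open, led by Itgb1, the beta1 integrin, with 12.8 and 10.5, and Ddr1, a receptor kinase, with 5.63 and 6.74 (0.965 and 0.501 at its 5′ end alone). All 18 genes of factors and signals that act on collagen transcription were open, with a median of 9.79 ± 0.53. Nfya, a subunit of NF-Y, had 24.4 and 18.5, and Tgfbr1, a TGF-beta receptor, 21.3 and 18.9.

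**Figure D5:**
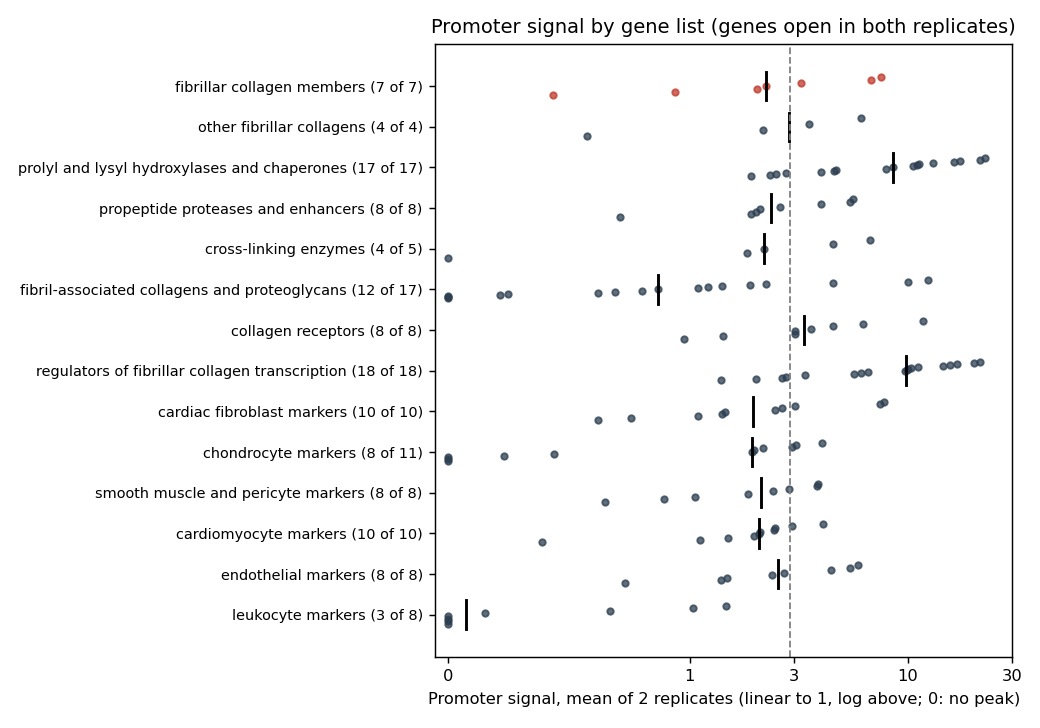
Promoter signal of each gene (x axis, mean of 2 replicates, linear up to 1 and logarithmic above, 0 for no peak) in the collagen genes (top, red) and 13 other gene lists, with a bar at each median and a dashed line at the median of all protein-coding genes, 2.86. The counts give the genes open in both replicates; the folding enzymes and the regulators have medians of 8.52 and 9.79, and the collagen genes 2.23.

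Marker genes were read against the 68.8% of all protein-coding genes that were open, with no test between lists. All 10 cardiomyocyte markers were open, with replicate means from 0.390 to 4.09. The highest were Actn2, the sarcomeric alpha-actinin, with 4.87 and 3.32 and Ryr2, the calcium release channel, with 3.10 and 2.77. All 10 cardiac fibroblast markers were open, with replicate means from 0.619 to 7.75, led by Vim, vimentin, with 8.27 and 7.23 and Pdgfra, a platelet-derived growth factor receptor, with 7.94 and 6.97 (5.12 and 4.23 at its 5′ end alone). All 8 markers of smooth muscle and pericytes, which also make collagen, were open, with replicate means from 0.650 to 3.88. They were led by Myh11 with 4.52 and 3.25 and Kcnj8 with 4.27 and 3.41. Endothelial markers were open in 8 of 8, with replicate means from 0.733 to 5.88, led by Eng with 6.28 and 5.47 and Vwf with 6.68 and 4.14. The values of Vwf come from a start other than the 5′ end, where Vwf had 0 in each replicate. Leukocyte markers were open in 3 of 8, with Spi1 at 1.45 and 1.48 and Cd68 at 1.19 and 0.871, and Ptprc, Csf1r, Cd3e and Cd79a had no promoter peak. The genes named are the strongest of each list. Median promoter signals were 2.08 for cardiomyocyte, 1.95 for fibroblast and 2.12 for smooth muscle and pericyte markers. They were 2.53 for endothelial and 0.0762 for leukocyte markers, all below the 2.86 of all protein-coding genes. The share that each cell type had in the collagen peaks was not tested.

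For the cartilage chains, 8 of 11 chondrocyte markers were open. Sox9, the master factor of cartilage, which heart valve cells also use, had 4.88 and 3.19, and its partner Sox6 had 3.70 and 2.41 (0.454 and 0.615 at its 5′ end alone). Acan, the gene of aggrecan, had 0.241 and 0.227, and the cartilage genes Col9a1, Matn1 and Col10a1 had no promoter peak in either replicate. Others were stronger, such as Matn3, a cartilage matrix protein gene, with 3.19 and 2.69, so the markers, like the collagens, did not form a uniform group. The share of open genes, 8 of 11, was near the 68.8% of all genes.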

How the data were processed

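DNase-seq peaks, footprints and FDR lists of 2 heart samples were used. Per the submitters' processing notes every list rests on the filtered mm10 alignment of 1 replicate, without pooling. Callers, versions, read totals and how CAST reads were handled are not given in the sources used, and depth is unknown. The signal of peaks is read-depth normalized by the authors, per the same notes, and how is not stated. The deposited FDR, an adjusted p-value of cutting, is listed only for runs under 0.05. In the deposited footprint lists the other column holds 0.01 throughout and was not used.

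The larger peak set (143122 and 125118 peaks) gave all values. Footprints numbered 350009 and 335568. Genes came from GENCODE M21, and a region's place from its middle base after any overlap with a promoter. Percentiles split ties. Members and lists were chosen with earlier results of these data known. Named are the 7 members, their nearest protein-coding neighbours, the 2 highest genes and up to 3 without a peak of each list, and the 2 strongest shared regions away from starts per window; further names were chosen with their values in view. Means and SDs are over 2 replicates and no test was made, since 1 group has no contrast. Interval and motif functions were tested on simulated data. Alternatives varied peak sets, promoter windows, flanks, overlap rules and replicates. Tools were pysam 0.24.0, matplotlib 3.10.9, scipy 1.17.1, pandas 2.3.3, numpy 2.4.6 and Python 3.11.15.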

Additional observations from a re-analysis of the deposited data

How the results depend on the processing

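The count of open members was 7 or 6, and their median promoter signal 2.23, under each of 7 alternatives of peak set and promoter window; each replicate alone gave 7 open members and medians of 1.99 to 2.47. The order of the 7 promoters was the same in all of these settings, but it had little room to change. Every setting picked the intron 1 peak for Col1a1, and none used the lower peak across its 5′ end alone. Of 63 single promoter values 3 moved by more than the spread between replicates. These 3 were of Col2a1, with no peak in the smaller set or among the upper 50% of peaks and 0.583 with 2 kb windows. The other 60 say little about stability. Values of 1 replicate alone lie within that spread by construction, and the rest equalled the reported value because the same peak was picked. Shared regions, 92 over the windows, were 44 with no flank and 54 with a flank of 10 kb, 66 to 138 under the other alternatives, and each replicate alone gave 107 to 116 regions. Footprints, a mean of 317, were 123.5 with no flank, 172.5 with 10 kb and 476 with 100 kb, which follows from the length counted, and 168 when replicate 1's footprints had to be covered by those of replicate 2; each replicate alone gave 314 to 320. Over single genes, 18 of 56 region counts and 8 of 21 promoter footprint counts moved by over 1.5 times, and the smaller set left 1 shared region at Col11a1 and 4 at Col2a1. Unknown depth limits what a missing peak means. No paired analysis was possible because there was a single group.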
